A study of Homo sapiens with 6 samples.

Results

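The 41 genes described here encode the cytoplasmic and nuclear machinery that shortens, decaps and degrades mRNA. They were taken by name: the rows of the deposited count matrix whose Ensembl identifiers are paired with the listed symbols, PAPD5 being the older symbol of TENT4B. All 41 of 41 were found among the 57905 genes of the matrix, and all 41 passed the low-count filter and entered the test over 16565 genes. The libraries were made from total RNA of HCT116, an established human colorectal carcinoma line with wild-type p53, in 3 conditions of 2 libraries each. Nut 0h cells received DMSO, the vehicle, and Nut 1h and Nut 10h cells received 10 µM Nutlin-3a, which blocks the p53-HDM2 interaction, for 1 or 10 h. All 6 libraries are of this line, so that every value below is for 1 tumour cell line. The paper calls the 2 libraries of a condition biological replicates. How their cultures were separated is not given in the sources used here, so that the p-values measure only the spread between these libraries.

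Most mRNAs are degraded after their poly(A) tail has been shortened by the PAN2-PAN3 and CCR4-NOT deadenylases. The body of the mRNA is then removed from the 5′ end, after DCP2 has taken off the cap, by the exonuclease XRN1, or from the 3′ end by the RNA exosome, a ring of subunits that also processes and degrades RNA in the nucleus. Proteins of the ZFP36 family bring AU-rich mRNAs to CCR4-NOT, and the UPF and SMG proteins carry mRNAs with premature stop codons into decay.

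The libraries held 26068076 to 35473485 counts, and the members held 377 to 13475 raw counts per library. Mitochondrial genes took 5.0 and 6.2% of the counts without the drug, 8.4 and 8.2% after 1 h, and 6.4 and 7.1% after 10 h, so that the Nut 1h libraries stood above the other 4, and the part of this in the 1 h results was not tested. The treatment labels were checked on a pair of p53 targets. MDM2 had normalised counts of 1688 and 2083 without the drug, 8694 and 8500.1 after 1 h, and 22633 and 27946 after 10 h, and CDKN1A had 10629 and 9286 without the drug, 9837 and 10726 after 1 h, and 145531 and 139682 after 10 h. MDM2 was thus above the Nut 0h libraries at both times and CDKN1A at Nut 10h. The 6 epithelial markers summed to 3660 to 7710 CPM (counts scaled to a common library total), lowest at Nut 1h (3660 to 3860) and highest at Nut 10h (6690 to 7710), whereas the 4 leukocyte markers summed to at most 0.23, the endothelial marker in the matrix to at most 0.0384 and the 4 fibroblast markers to 24.0 to 42.6, with 1 of the 4 at 0 in every library.

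The promoter windows of 3 members are shown because their counts moved most between 1 and 10 h and in opposite directions. They are the 250 bases before the transcription start in the RefSeq table of GRCh38.p14, written 5′ to 3′ along the gene's own strand. DCP1B lies at chr12:2004458-2004707 on the minus strand, DCP2 at chr5:112976548-112976797 on the plus strand and EXOSC9 at chr4:121801073-121801322 on the plus strand. Capitals mark matches, on either strand, to the plain-letter motifs searched, which were CCGGAAG (an ETS-type site), CCAAT (the NF-Y box, ATTGG on the other strand), TTTGAA (the core of the cell-cycle homology region) and CATGNNNNNNCATG (paired p53 core letters). No match of one motif overlapped a match of another in these 3 windows.
DCP1B: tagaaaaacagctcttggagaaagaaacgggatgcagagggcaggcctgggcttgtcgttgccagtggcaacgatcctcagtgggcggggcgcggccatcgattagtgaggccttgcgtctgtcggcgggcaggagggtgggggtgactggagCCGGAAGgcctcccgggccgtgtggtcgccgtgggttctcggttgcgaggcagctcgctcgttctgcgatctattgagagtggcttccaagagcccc
DCP2: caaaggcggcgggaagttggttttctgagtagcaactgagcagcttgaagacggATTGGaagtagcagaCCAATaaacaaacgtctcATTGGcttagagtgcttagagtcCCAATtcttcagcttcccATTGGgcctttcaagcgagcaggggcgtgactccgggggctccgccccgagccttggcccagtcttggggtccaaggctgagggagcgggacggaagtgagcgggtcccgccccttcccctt
EXOSC9: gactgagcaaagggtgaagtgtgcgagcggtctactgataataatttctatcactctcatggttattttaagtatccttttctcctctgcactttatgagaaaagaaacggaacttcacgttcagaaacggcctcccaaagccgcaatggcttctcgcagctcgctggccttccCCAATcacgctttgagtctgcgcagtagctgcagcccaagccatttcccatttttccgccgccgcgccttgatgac
The DCP1B window held 1 CCGGAAG, 97 to 91 bases before the start. The DCP2 window held 5 CCAAT boxes between 196 and 118 bases before the start, and the EXOSC9 window held 1, at 76 to 72 bases. Of the 36 members with an entry in the table, 16 had CCAAT in at least 1 of their windows (44.4%, against 10102 of the 27305 genes in the table), 3 had CCGGAAG (8.33% against 10.2%), 4 had TTTGAA (11.1% against 16.1%) and none had CATGNNNNNNCATG (0.374% of the genes). CCAAT was in 32.0% of all 35116 windows, TTTGAA in 13.3%, CCGGAAG in 8.52% and CATGNNNNNNCATG in 0.296%. A match describes the letters of the window only. CNOT1, CNOT7, ZFP36L2, EXOSC1 and EXOSC4 have no entry.

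After 1 h of Nutlin-3a, 20 of the 41 members were higher and 13 were lower than in Nut 0h cells (edgeR quasi-likelihood test, Benjamini-Hochberg adjusted p of at most 0.05 over all tested genes), in a comparison that called 66.9% of all genes, 34.5% higher and 32.3% lower. The median log2 fold change was 0.23 over the members and 0.05 over all tested genes. The rises were led by DCP2, SMG1, XRN1, CNOT6 and CNOT7, and the falls by EXOSC4, EXOSC5, DCP1B, EDC4 and CNOT3. After 10 h, 3 members were higher and 12 were lower than in Nut 0h cells, where 29.0% of all genes were called, 14.1% higher and 14.9% lower, and the median was -0.10 over the members and 0.00 over all genes. With upper-quartile scaling the members' median was -0.053, and without Nut 10h replicate 1 it was -0.065. DCP1B, CNOT6 and PAPD5 were the 3 higher members, and EXOSC9, ZFP36L2 and EXOSC8 fell furthest. These counts at 10 h turned on single libraries: without Nut 0h replicate 1, 1 member was higher and 7 were lower, and 5 members were higher without Nut 0h replicate 2 or without Nut 10h replicate 1.

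Between 1 and 10 h, 9 members were higher and 18 were lower, in a comparison that called 67.9% of all genes, 34.2% higher and 33.7% lower, with a median of -0.22 over the members and -0.02 over all genes. Without Nut 1h replicate 1 the higher members numbered 5, and without Nut 10h replicate 1 the median was -0.13. The 3 comparisons share their libraries, so that each member's calls are set side by side only. Of the 20 members that were higher at 1 h, 6 (CNOT10, EXOSC2, EXOSC3, EXOSC8, EXOSC9 and UPF3B) were lower than Nut 0h at 10 h, 12 were not called at 10 h, and CNOT6 and PAPD5 were still higher. Of the 13 that were lower at 1 h, 5 (CNOT3, ZFP36, EDC4, EXOSC10 and UPF1) were also lower at 10 h, 7 were not called, and DCP1B was higher. CNOT1, CNOT4, PAN2, EXOSC1 and EXOSC7 were called in none of the 3 comparisons, although each was called at 1 h in a fit with an offset for GC content. For CNOT4 that call was lower (-0.46). It was called higher with upper-quartile scaling (0.28), a filter with a minimum count of 50 (0.27) or a replicate block (0.25). The fit to only the 2 conditions compared called it higher as well (0.21).

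**Figure D1:**
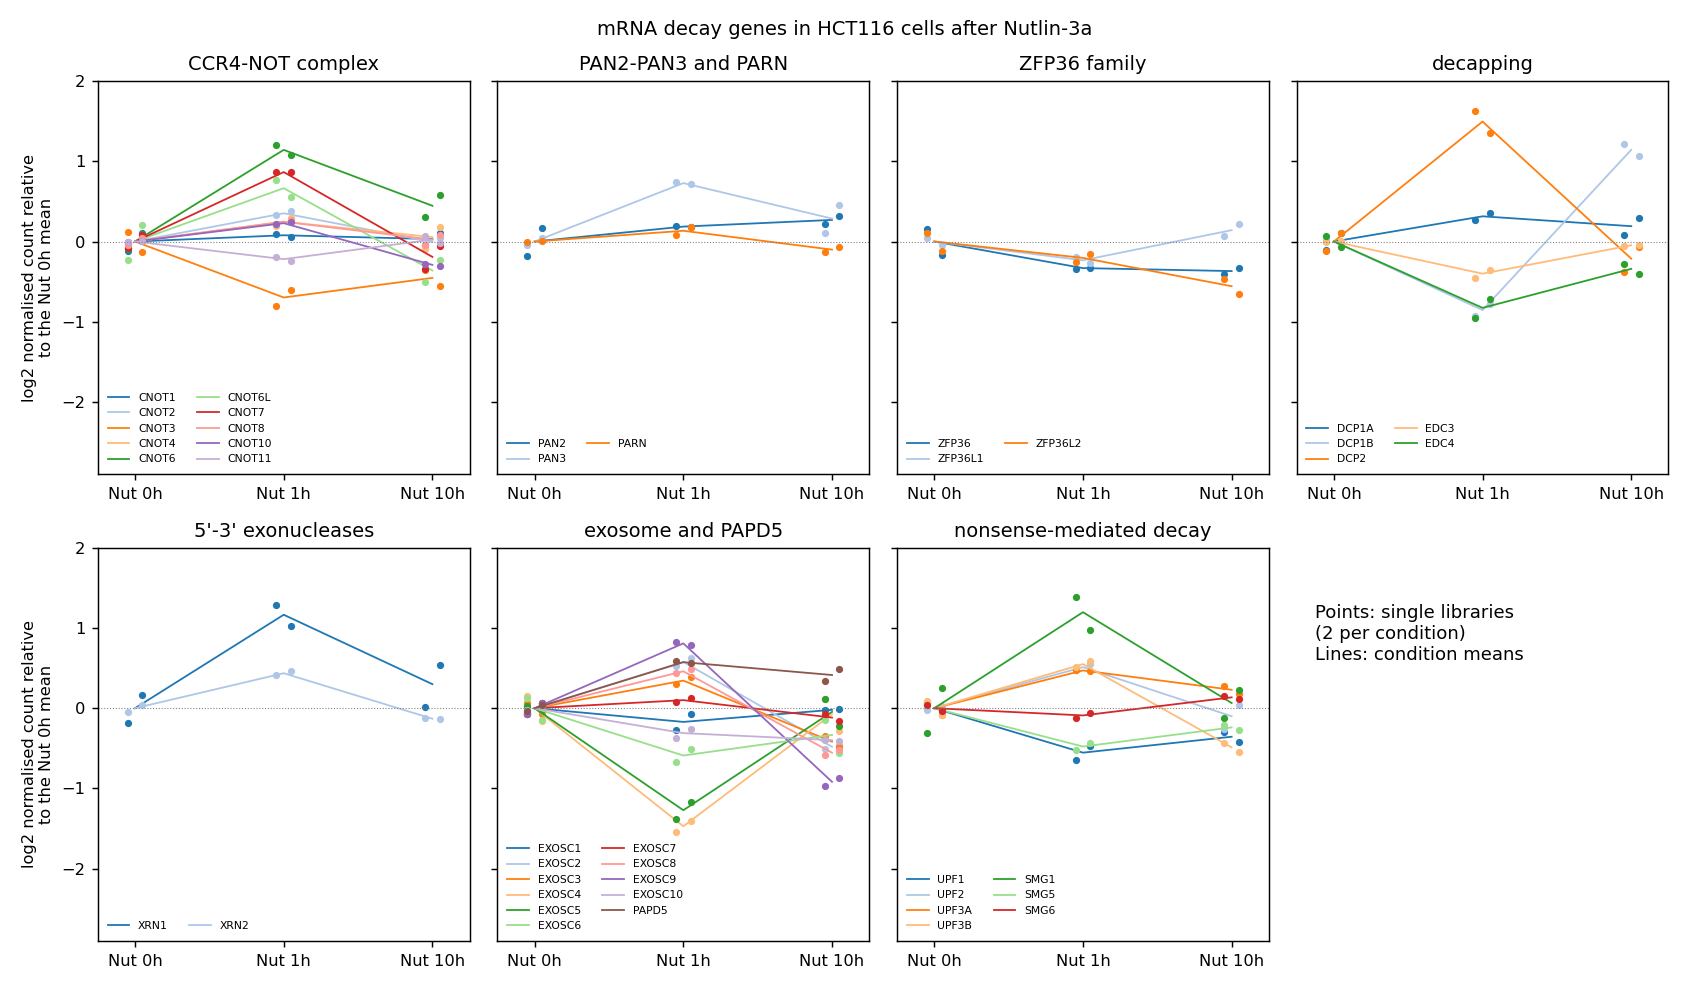
Log2 normalised count of each of the 41 members relative to its Nut 0h mean (vertical axis) in the 3 conditions (horizontal axis), with 1 panel per complex or pathway, a point per library and a line through the condition means. DCP1B lies below its Nut 0h level at Nut 1h and above it at Nut 10h, whereas CNOT10, EXOSC2, EXOSC3, EXOSC8, EXOSC9 and UPF3B do the reverse.

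The direction of the 1 h changes went with the base composition of the transcripts. The GC content of each member's longest annotated transcript ran from 34.1% (CNOT2) to 60.4% (UPF1). Of the 9 members below 40% GC, 7 were higher at 1 h and 1, DCP1B, was lower, in a class where 82.6% of all tested genes were higher and 1.38% lower. Of the 20 members between 40 and 50%, 13 were higher and 3 lower, where 50.1% of all genes of the class were higher and 9.03% lower. Of the 12 members above 50%, 0 were higher and 9 were lower, beside 5.2% higher and 62.8% lower among all genes of that class. Across the 41 members, Pearson's r between GC content and log2 fold change was -0.72 at 1 h and -0.21 at 10 h against Nut 0h, and it was -0.69 and -0.03 across the 16243 tested genes with a GC value. These correlations are across genes, which share the same libraries, and are given as a description.

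The test was therefore also run with a GC-content offset, in which the dependence of each library's counts on GC content is fitted across all genes and taken out. At 1 h it left 12 members higher and 12 lower, with a median of -0.074, where it called 46.1% of all genes (22.7% higher, 23.4% lower). The rises of CNOT6, DCP2, XRN1, EXOSC2 and SMG1 and the falls of CNOT11, DCP1B, EXOSC4, EXOSC5, EXOSC6 and EXOSC10 were called with and without the offset. CNOT2 went from higher to lower, and ZFP36, ZFP36L1, UPF1 and SMG5 went from lower to higher. The other 14 rises and 3 falls were not called with the offset, and all 8 members without a call gained one: PAN2, ZFP36L2 and SMG6 were higher, and CNOT1, CNOT4, PARN, EXOSC1 and EXOSC7 were lower. At 10 h against Nut 0h all 15 calls were made with the offset as well, and 7 more were added (PAN2 and PAN3 higher, CNOT6L, CNOT7, DCP2, EXOSC6 and SMG5 lower), where 39.2% of all genes were called (18.8% higher, 20.4% lower). In the comparison of Nut 10h with Nut 1h, 13 members were higher and 16 were lower with the offset, where 58.4% of all genes were called (29.2% in each direction). There CNOT2 went from lower to higher, ZFP36L1, EDC4, SMG5 and SMG6 went from higher to lower, and 13 of the 27 calls were made in the same direction. Below, the value with the offset is given beside a 1 h result where it ends or turns the call. The part that base composition had in these results was not tested in any other way.

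**Figure D2:**
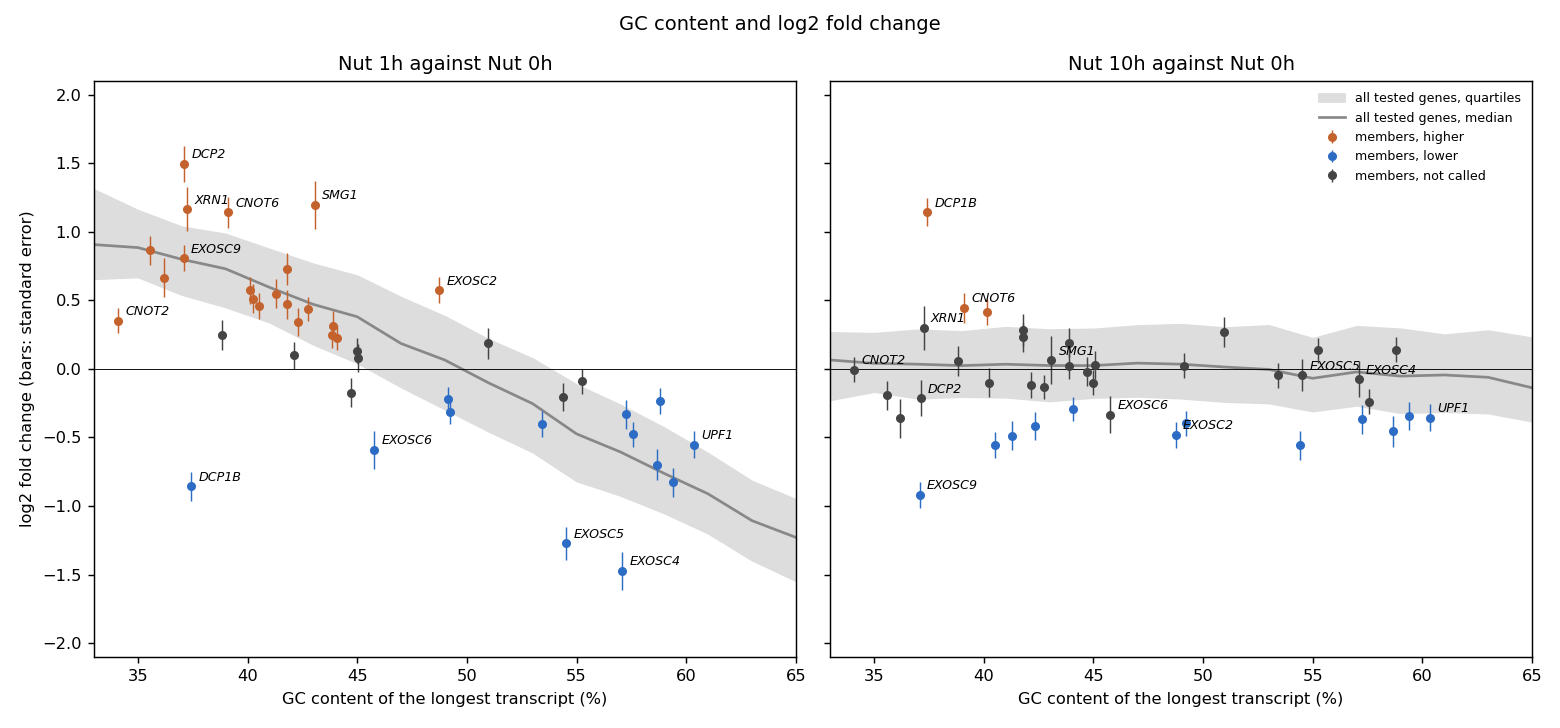
Log2 fold change (vertical axis) against the GC content of the longest transcript in percent (horizontal axis) at 1 h (left) and 10 h (right) against Nut 0h, with points and standard errors for the 41 members, coloured by call, over the median and quartiles of all tested genes in bins of GC content. At 1 h the members follow the slope of all genes, with DCP1B, at 37.4% GC, far below it, and at 10 h no such slope is seen.

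**Figure D3:**
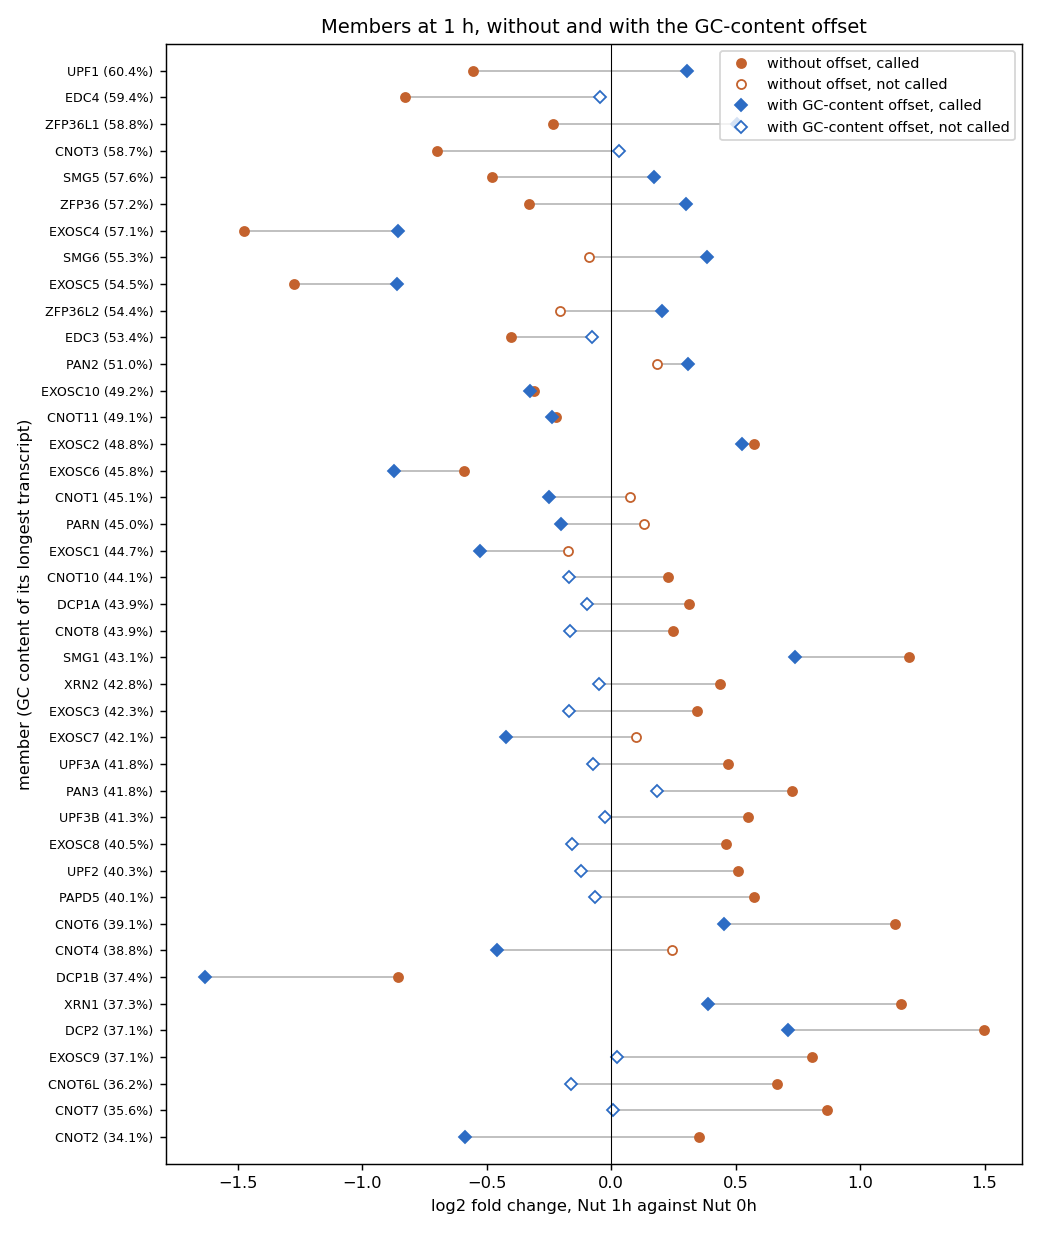
Log2 fold change at 1 h against Nut 0h (horizontal axis) of each member, ordered by GC content (vertical axis), without (circles) and with (diamonds) the GC-content offset, filled where called at an adjusted p of at most 0.05. The offset moves GC-poor members down and GC-rich members up, and the marker of DCP1B goes from -0.86 to -1.63.

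The decapping genes held the member with the widest course. DCP1B (chr12:2055219-2113701, minus strand, GRCh37), a cofactor that activates the decapping enzyme, had normalised counts of 825 and 808 without the drug, 428 and 474 after 1 h, and 1901 and 1706 after 10 h. Both Nut 1h libraries were below the Nut 0h libraries and both Nut 10h libraries were above them, with no overlap between conditions. The log2 fold change was -0.86 ± 0.11 (SE, adjusted p = 1.01e-05) at 1 h and 1.14 ± 0.10 (SE, adjusted p = 1.18e-06) at 10 h, and Nut 10h exceeded Nut 1h by 2.0 ± 0.11 (SE, adjusted p = 3.12e-09). DCP1B was the only member lower at 1 h and higher at 10 h, and the GC-content offset made its fall larger (-1.63) and left its rise at 1.13. Its raw counts were the lowest of the 41 members in both Nut 1h libraries, though not in the other 4.

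DCP2 (chr5:112312399-112357892, plus strand, GRCh37), the enzyme that cleaves the cap, ran the other way, with normalised counts of 922 and 1082 without the drug, 3095 and 2552 after 1 h, and 770.5 and 957 after 10 h. The Nut 1h libraries were far above the other 4, and the Nut 0h and Nut 10h libraries overlapped. Its rise of 1.50 ± 0.13 (SE, adjusted p = 4.7e-07) was the highest of the 41 at 1 h, and with the offset it was 0.71. At 10 h its difference from Nut 0h was -0.21 (adjusted p = 0.246), and from 1 to 10 h it fell by 1.71 in log2 units (adjusted p = 7.55e-08). With the offset the change from 1 to 10 h was -0.95 and called. EDC4, a scaffold that holds DCP1 and DCP2 together, had counts of 6046 and 5519.9 without the drug, 2998 and 3521 after 1 h, and 4757 and 4376 after 10 h. It was lower than Nut 0h at 1 h (-0.83, adjusted p = 9.01e-06) and at 10 h (-0.34, adjusted p = 0.0227), but the 1 h fall was -0.046 and not called with the offset, and the 10 h fall was not called without Nut 0h replicate 1 (-0.27) or without Nut 10h replicate 2 (-0.27). EDC3, another enhancer of decapping, fell at 1 h (-0.40, and -0.077, not called, with the offset), and DCP1A, the paralogue of DCP1B, rose (0.31, and -0.095, not called, with the offset). Without Nut 0h replicate 1, Nut 1h replicate 1 or Nut 1h replicate 2 the rise of DCP1A was 0.20, 0.36 and 0.26 and not called, and with an offset for transcript length it was 0.18 and not called. Neither gene was called at 10 h. Of the annotated exonic bases of EDC3, 13.8% lie opposite exons of CLK3, which had a log2 fold change of -0.61 at 1 h, and 21.3% of those of EDC4 lie within a long noncoding RNA gene on the same strand. In all, 21 of the 41 members share exonic bases with another annotated gene, 11 of them over at least 10% of their exonic length. The strand setting of the counting is not given in the sources used here, and the part of such overlaps was not tested.

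**Figure D4:**
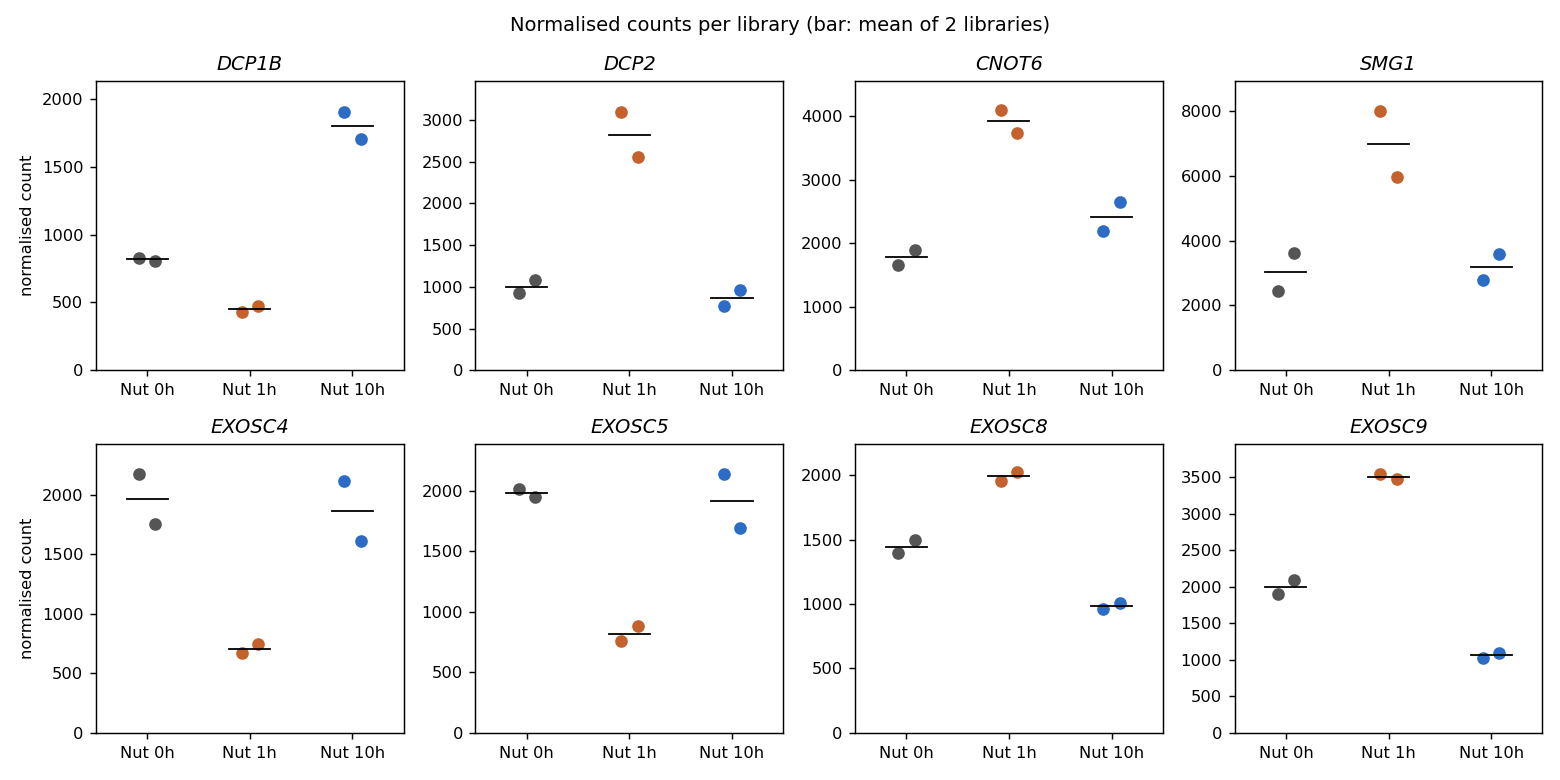
Normalised counts (vertical axes, each from 0) of 8 members in the 6 libraries by condition (horizontal axes), with a point per library and a bar at the mean of the 2 libraries. The Nut 10h points of DCP1B lie highest and its Nut 1h points lowest, EXOSC4 and EXOSC5 are low at Nut 1h only, and DCP2, SMG1, EXOSC8 and EXOSC9 are highest at Nut 1h.

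Of the exonucleases that degrade RNA from the 5′ end, XRN1 acts on decapped mRNA in the cytoplasm and XRN2 on nuclear RNA. XRN1 had normalised counts of 613 and 779 without the drug, 1702 and 1419.6 after 1 h, and 703 and 1011 after 10 h. The Nut 1h libraries were above the other 4, while the Nut 10h libraries differed from each other by 0.524 on the log2 scale. XRN1 rose at 1 h by 1.17 ± 0.16 (SE, adjusted p = 2.17e-05), or 0.39 with the offset, and was not called at 10 h (0.30, adjusted p = 0.187). XRN2 rose less at 1 h (0.44, adjusted p = 0.000614), a call that ended with the offset (-0.047), and was at -0.13 at 10 h (adjusted p = 0.299).

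Of the 10 CCR4-NOT members, 6 were higher and 2 lower at 1 h (34.5% and 32.3% of all genes), and 1 was higher and 2 lower at 10 h (14.1% and 14.9%). Of the 8 calls at 1 h, those of CNOT8 and CNOT10 ended when any of the 6 libraries was left out, that of CNOT11 when any Nut 0h or Nut 1h library was left out (-0.24 to -0.20) or transcript length was fitted as an offset (0.015) and that of CNOT2 without Nut 1h replicate 2 (0.32), and CNOT8 was then at 0.20 to 0.28. With the offset the balance at 1 h was the reverse, with 1 higher and 4 lower (22.7% and 23.4% of all genes). The complex carries 2 kinds of deadenylase, CNOT6 or its paralogue CNOT6L and CNOT7 or its paralogue CNOT8, on the scaffold CNOT1. CNOT6 (chr5:179921379-180005358, plus strand, GRCh37) had normalised counts of 1659 and 1890.4 without the drug, 4093 and 3742 after 1 h, and 2191 and 2642 after 10 h. Every treated library was above both Nut 0h libraries, and the rise was 1.14 ± 0.11 (SE, adjusted p = 1.14e-06) at 1 h and 0.45 ± 0.11 (SE, adjusted p = 0.00788) at 10 h. With the offset these were 0.45 and 0.42, both called, and without Nut 0h replicate 1 the 10 h rise was 0.35 and without Nut 10h replicate 2 0.32, neither called. CNOT7 had counts of 3128 and 3483 without the drug, 6016 and 6029.6 after 1 h, and 2613 and 3174 after 10 h, with the Nut 1h libraries above the other 4 and the Nut 0h and Nut 10h libraries overlapping. Its 1 h rise of 0.87 ± 0.11 (SE, adjusted p = 7.54e-06) was 0.0068 and not called with the offset, and from 1 to 10 h it fell by 1.06 (adjusted p = 9.9e-07; -0.22 and called with the offset). Of its annotated exonic bases, 18.8% lie opposite a long noncoding RNA gene.

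CNOT3, a structural subunit of the module that also holds CNOT2, had normalised counts of 6018 and 5071 without the drug, 3180.4 and 3657 after 1 h, and 4335 and 3761 after 10 h. All 4 treated libraries were below both Nut 0h libraries, with Nut 1h lowest. The difference from Nut 0h was -0.70 ± 0.11 (SE, adjusted p = 8.97e-05) at 1 h, which with the offset was 0.032 and not called, and -0.45 ± 0.11 (SE, adjusted p = 0.00776) at 10 h, which without Nut 0h replicate 1 was -0.33 and without Nut 10h replicate 2 -0.34, neither called. CNOT10, which forms a module with CNOT11 at the end of the scaffold, had counts of 1852 and 1866 without the drug, 2156 and 2201 after 1 h, and 1530.4 and 1508 after 10 h. The 3 conditions did not overlap, with Nut 1h highest and Nut 10h lowest, and the log2 fold changes were 0.23 at 1 h (adjusted p = 0.0346, and -0.17, not called, with the offset) and -0.29 at 10 h (adjusted p = 0.0245). Neither call was made once any of the 6 libraries was left out, where the values were 0.19 to 0.25 at 1 h and -0.30 to -0.27 at 10 h. The scaffold CNOT1 stayed between 10777 and 12608 in all 6 libraries, and its 1 h value of 0.078, not called, was -0.25 and called with the offset. Of its exonic bases, 12.5% lie opposite exons of SETD6. The remaining members lay between -0.22 (CNOT11) and 0.67 (CNOT6L) at 1 h and between -0.36 (CNOT6L) and 0.055 (CNOT4) at 10 h, where none was called. With the offset the 1 h values were -0.58 for CNOT2, lower in place of higher (0.35), -0.46 for CNOT4, which gained a call, and -0.16 for CNOT6L and -0.16 for CNOT8, which lost theirs.

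In the second group of deadenylases, PAN3, the adaptor of the PAN2 nuclease, rose at 1 h by 0.73 ± 0.12 (SE, adjusted p = 7.82e-05), and this was 0.18 and not called with the offset. PAN2 and PARN, the poly(A)-specific ribonuclease, were called neither at 1 h (0.19 and 0.13) nor at 10 h (0.27 and -0.10). With the offset PAN2 was called higher at both times (0.31 and 0.25) and PARN lower at 1 h (-0.20). Of the exonic bases of PAN2, 19.5% lie opposite the antisense gene CNPY2-AS1. PAN3 was at 0.29 at 10 h (adjusted p = 0.0819) and was called with the offset (0.26).

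The ZFP36 family proteins bind AU-rich elements and recruit CCR4-NOT. ZFP36, also called tristetraprolin, had normalised counts of 4187 and 3343 without the drug, 2979 and 3007 after 1 h, and 2844 and 2989 after 10 h. All 4 treated libraries were below both Nut 0h libraries, which themselves differed by 0.325 on the log2 scale. Its log2 fold change was -0.33 at 1 h (adjusted p = 0.0143), which turned to 0.30 with the offset (adjusted p = 0.00654), and -0.37 at 10 h (adjusted p = 0.0194), which without Nut 0h replicate 1 was -0.20 and not called. The 10 h fall was also not called without Nut 1h replicate 1 or 2 (-0.37 in both fits), and the 1 h fall was not called without Nut 0h replicate 1 (-0.17), Nut 1h replicate 1 (-0.32) or Nut 1h replicate 2 (-0.35). With an offset for transcript length in place of GC content the 1 h value was -0.017 and not called.

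ZFP36L2 had counts of 3202 and 2741 without the drug, 2487 and 2672 after 1 h, and 2152 and 1888 after 10 h. It was lowest at Nut 10h, with no overlap with the other conditions, and its 10 h difference of -0.56 ± 0.11 (SE, adjusted p = 0.00125) was called whichever of the 6 libraries was left out. At 1 h it was at -0.20 and not called, and at 0.20 and called with the offset. ZFP36L1 had counts of 6792 and 6349 without the drug, 5728 and 5447 after 1 h, and 6868 and 7627 after 10 h. Its Nut 1h libraries were the lowest 2, and its Nut 10h libraries were above both Nut 0h libraries, the nearest by a narrow gap. It fell at 1 h (-0.23, adjusted p = 0.041), a change that turned to 0.51 with the offset, and at 10 h it was at 0.14 (adjusted p = 0.287). The 1 h fall was not called when any of the 4 Nut 0h and Nut 1h libraries was left out, at -0.29 to -0.19. Of the annotated exonic bases of ZFP36L2, 22.4% lie opposite a long noncoding RNA gene.

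Of the 11 members of the exosome group, 5 were higher at 1 h (EXOSC2, EXOSC3, EXOSC8, EXOSC9 and PAPD5) and 4 were lower (EXOSC4, EXOSC5, EXOSC6 and EXOSC10), beside 34.5% higher and 32.3% lower among all genes. With the offset 1 was higher (EXOSC2) and 6 were lower, beside 22.7% and 23.4%. EXOSC4, a subunit of the hexameric ring, had normalised counts of 2173 and 1753 without the drug, 672 and 744 after 1 h, and 2117 and 1613 after 10 h, and EXOSC5, another ring subunit, had 2017 and 1946 without the drug, 759.5 and 882 after 1 h, and 2143 and 1696 after 10 h. In both genes the Nut 1h libraries were far below the other 4, and the Nut 0h and Nut 10h libraries overlapped. The 1 h falls were -1.47 ± 0.14 (SE, adjusted p = 9.69e-07) and -1.27 ± 0.12 (SE, adjusted p = 1.01e-06), and they were -0.86 and -0.86 with the offset. At 10 h the differences from Nut 0h were -0.074 and -0.046 (adjusted p = 0.72 and 0.807). EXOSC6 was also lower at 1 h (-0.59, and -0.87 with the offset). Of the exonic bases of EXOSC4, 56.7% are shared with a gene on the same strand that has no row in the count matrix and 18.2% lie opposite a long noncoding RNA gene.

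EXOSC9 (chr4:122722473-122738176, plus strand, GRCh37), a ring subunit, had normalised counts of 1908 and 2099 without the drug, 3543 and 3474 after 1 h, and 1024 and 1098 after 10 h. The 3 conditions did not overlap, with Nut 1h highest and Nut 10h lowest. It rose at 1 h by 0.81 ± 0.09 (SE, adjusted p = 4.55e-06), which with the offset was 0.022 and not called, and at 10 h it was at -0.92 ± 0.10 (SE, adjusted p = 5.86e-06), the furthest fall of the 41 at that time and -0.93 with the offset. Exons of EXOSC9 lie opposite those of CCNA2, cyclin A2, over 254 bases or 5.39% of its exonic length. CCNA2 had counts of 4920.5 and 4589 without the drug, 5235 and 5297 after 1 h, and 1139 and 1217 after 10 h, so that it was lower at Nut 10h too, but it was not called at 1 h, and whether its reads enter the EXOSC9 counts was not tested.

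EXOSC8, a ring subunit, and EXOSC2 and EXOSC3, subunits of the cap that binds RNA above the ring, followed the same order. EXOSC8 had counts of 1392 and 1501 without the drug, 1955 and 2025 after 1 h, and 965 and 1005 after 10 h. EXOSC2 had counts of 1797 and 1925 without the drug, 2685 and 2866 after 1 h, and 1314 and 1353 after 10 h. EXOSC3 had counts of 1138 and 1031 without the drug, 1338 and 1416 after 1 h, and 851 and 774 after 10 h. In each of the 3 genes Nut 1h was highest and Nut 10h lowest with no overlap between conditions. Their 1 h rises were 0.46, 0.58 and 0.34 (adjusted p = 0.000614, 7.91e-05 and 0.0082), and only that of EXOSC2 was called with the offset (0.53, against -0.16 for EXOSC8 and -0.17 for EXOSC3). At 10 h the differences from Nut 0h were -0.55, -0.48 and -0.42 (adjusted p = 0.000579, 0.00146 and 0.00745), and without Nut 0h replicate 1 that of EXOSC3 was -0.34 and not called. The 1 h rise of EXOSC3 was not called without Nut 0h replicate 2 (0.26) or without Nut 1h replicate 2 (0.30). Of the exonic bases of EXOSC8, 16.3% lie opposite exons of SUPT20H, which was called in none of the 3 comparisons.

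EXOSC10, a nuclease bound to the nuclear exosome, had normalised counts of 4195 and 4327 without the drug, 3299.8 and 3573 after 1 h, and 3250.3 and 3219.8 after 10 h. All 4 treated libraries were below both Nut 0h libraries, with log2 fold changes of -0.31 at 1 h and -0.40 at 10 h (adjusted p = 0.00714 and 0.00421), and both falls were called with the offset, though the 1 h fall was not called without Nut 1h replicate 1 (-0.25) or with an offset for transcript length (-0.12). Of its exonic bases, 36.7% lie opposite a long noncoding RNA gene. PAPD5 (chr16:50186822-50269221, plus strand, GRCh37), a noncanonical poly(A) polymerase whose short tails mark nuclear RNA for the exosome, had counts of 1055 and 1108 without the drug, 1627 and 1593 after 1 h, and 1369 and 1513 after 10 h. All 4 treated libraries were above both Nut 0h libraries, with Nut 1h highest. Its rise was 0.57 at 1 h (adjusted p = 0.000129, and -0.064, not called, with the offset) and 0.41 at 10 h (adjusted p = 0.00546, and 0.38, not called, without Nut 0h replicate 1). EXOSC1 and EXOSC7 lay between -0.17 and 0.10 at 1 h and between -0.12 and -0.02 at 10 h, and with the offset both were called lower at 1 h (-0.53 and -0.42), whereas with an offset for transcript length EXOSC7 was called higher (0.41). Of the exonic bases of EXOSC7, 13.6% are shared with CLEC3B on the same strand.

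Of the 7 genes of nonsense-mediated decay, 4 were higher and 2 lower at 1 h (34.5% and 32.3% of all genes), and 2 were lower at 10 h (14.9% of all genes). With the offset 4 were higher at 1 h (UPF1, SMG1, SMG5 and SMG6) and 0 lower, beside 22.7% and 23.4% of all genes, and only SMG1 was among the 4 higher without it. UPF1, the helicase at the centre of the pathway, had normalised counts of 9757 and 8959 without the drug, 5991 and 6758 after 1 h, and 7612 and 7016 after 10 h. All 4 treated libraries were below both Nut 0h libraries. The difference was -0.55 at 1 h (adjusted p = 0.000197), which turned to 0.30 with the offset (adjusted p = 0.00103), and -0.36 at 10 h (adjusted p = 0.0145), which without Nut 0h replicate 1 was -0.29 and without Nut 10h replicate 2 -0.28, neither called. UPF3B, which links UPF1 and UPF2 to the exon junction complex, had counts of 929 and 824 without the drug, 1251 and 1314 after 1 h, and 648 and 602 after 10 h. Its Nut 1h libraries were highest and its Nut 10h libraries lowest, with no overlap. It was at 0.55 at 1 h (adjusted p = 0.000308, and -0.026, not called, with the offset) and at -0.49 at 10 h (adjusted p = 0.00317, and -0.51 with the offset).

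SMG1 (chr16:18816182-18937730, minus strand, GRCh37), the kinase that phosphorylates UPF1, had normalised counts of 2459 and 3635 without the drug, 7996 and 5973 after 1 h, and 2798 and 3577 after 10 h. Both Nut 1h libraries were above the other 4, and the Nut 0h and Nut 10h libraries overlapped. The rise at 1 h was 1.20 ± 0.17 (SE, adjusted p = 3.58e-05), called with the offset as well (0.74), although SMG1 had the widest gap between replicates of all members at Nut 0h, 0.56 on the log2 scale, and at Nut 1h, 0.42. SMG1 has near-identical pseudogene copies on the same chromosome, and how reads that fit several copies were counted is not given in the sources used here, so that its counts are uncertain. UPF2 and UPF3A rose at 1 h (0.51 and 0.47), and neither was called with the offset (-0.12 and -0.074). SMG5, which binds phosphorylated UPF1, fell (-0.48) and turned to 0.17 with the offset, and the endonuclease SMG6 was not called at 1 h (-0.09) and was called at 0.38 with the offset. Of the exonic bases of SMG6, 22.9% lie opposite exons of HIC1. With an offset for transcript length SMG6 was called lower at 1 h (-0.23). At 10 h UPF2, UPF3A, SMG1, SMG5 and SMG6 lay between -0.24 (SMG5) and 0.23 (UPF3A), and none was called.

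Several members are pairs of paralogues that take the same place in a complex, and their shares of the pair were computed from normalised counts per kilobase of the canonical transcript. DCP1B made up 57.2% and 53.0% without the drug, 34.8% and 35.7% after 1 h, and 72.9% and 67.6% after 10 h of the DCP1B and DCP1A level. The share was lowest at Nut 1h and highest at Nut 10h in both libraries of each. CNOT6L made up 24.3% and 27.6% without the drug, 20.6% and 19.8% after 1 h, and 16.7% and 16.8% after 10 h of the CNOT6L and CNOT6 level. CNOT7 made up 48.2% and 49.4% without the drug, 59.9% and 59.1% after 1 h, and 43.7% and 46.4% after 10 h of the CNOT7 and CNOT8 level. UPF3B made up 54.7% and 54.6% without the drug, 55.3% and 56.6% after 1 h, and 42.3% and 42.2% after 10 h of the UPF3B and UPF3A level. The conditions did not overlap for CNOT6L, whose share was lower at each time, or for CNOT7, highest at Nut 1h. For UPF3B the Nut 10h share stood below the other 4 libraries, with Nut 1h just above Nut 0h. The size of a share depends on the length by which counts are divided. With all annotated exonic bases as the length, an alternative chosen after seeing the data, DCP1B made up 37.7% and 33.8% without the drug, 19.5% and 20.1% after 1 h, and 55.0% and 48.7% after 10 h, and UPF3B made up 73.1% and 73% without the drug, 73.6% and 74.6% after 1 h, and 62.2% and 62.1% after 10 h. Which partner was the more abundant thus turned for DCP1B at Nut 0h and for UPF3B at Nut 10h, and the DCP1B shares at Nut 10h lay on both sides of 50%, while the order of the conditions was the same for all 4 pairs. With 2 libraries a condition the difference between paralogues was not tested, and the GC content of the transcripts differs within the pairs (37.4% for DCP1B and 43.9% for DCP1A, 35.6% for CNOT7 and 43.9% for CNOT8).

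**Figure D5:**
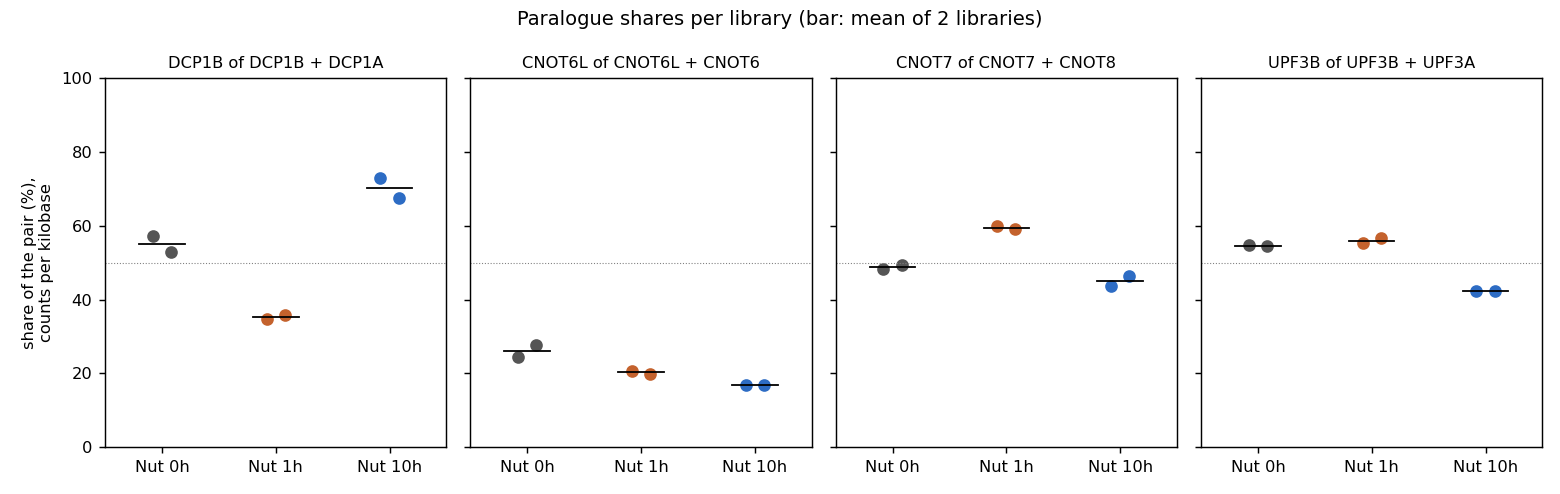
Share of the named paralogue in its pair in percent of normalised counts per kilobase (vertical axis) in each library by condition (horizontal axis), with a bar at the mean of 2 libraries. The share of DCP1B is lowest at Nut 1h and highest at Nut 10h, and that of UPF3B is lowest at Nut 10h, while which partner exceeds 50% depends on the length used for DCP1B and UPF3B.

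The members were also set beside 69 other genes of mRNA decay, all of which were tested. At 1 h, 38 of these were higher and 15 lower (55.1% and 21.7%, against 34.5% and 32.3% of all genes), with a median log2 fold change of 0.38. At 10 h 9 were higher and 15 lower (14.1% and 14.9% of all genes), with a median of 0.01. Between 1 and 10 h 15 were higher and 41 lower (21.7% and 59.4%, against 34.2% and 33.7%), with a median of -0.48. At 1 h the highest rises were those of DDX6, the helicase that joins deadenylation to decapping, at 1.38 (adjusted p = 5.5e-07), and ZFC3H1, a nuclear exosome adaptor, at 1.34 (adjusted p = 4.93e-07), and the furthest falls were those of PNRC1, a protein that binds the decapping complex, at -1.25 (adjusted p = 3.36e-07), and LSM7, a subunit of the LSM ring that binds deadenylated mRNA, at -1.04 (adjusted p = 3.31e-06). With the offset 25 of the 69 were higher and 16 lower at 1 h (22.7% and 23.4% of all genes), with a median of 0.044, 14 were higher and 22 lower at 10 h (18.8% and 20.4%), with a median of -0.013, and 18 were higher and 27 lower between 1 and 10 h (29.2% of all genes in each direction), with a median of -0.05. Of the calls without it, 26 of 53 at 1 h, all 24 at 10 h and 35 of 56 between 1 and 10 h were made in the same direction. With the offset the 1 h values were 0.74 for DDX6, 0.71 for ZFC3H1 and -1.40 for PNRC1, all called, and -0.035 for LSM7, not called. PNRC1 had normalised counts of 876 and 838 without the drug, 359 and 361 after 1 h, and 1472 and 1527 after 10 h, the order of conditions that DCP1B had. At 10 h the highest rises were those of BTG2 and TOB1, adaptors that bring the CNOT7 and CNOT8 deadenylases to mRNA. BTG2 had counts of 1039.8 and 955 without the drug, 2075 and 2097 after 1 h, and 6892 and 7226 after 10 h, and a log2 fold change at 10 h of 2.82 (adjusted p = 3.43e-10). TOB1 had counts of 2445 and 2242 without the drug, 2528 and 2358 after 1 h, and 5107 and 5394 after 10 h, and a log2 fold change at 10 h of 1.16 (adjusted p = 4.15e-07). The furthest falls at 10 h were those of the deadenylase TOE1, at -1.05 (adjusted p = 6.11e-06), and CNOT9, the CCR4-NOT subunit that binds GW182 proteins, at -0.58 (adjusted p = 0.000212). CNOT9 (-0.5836) held this place by a narrow margin. KHSRP (-0.5827), HNRNPD (-0.5811), TENT4A (-0.5704) and EIF4A3 (-0.5662) were also called lower. Between 1 and 10 h, PNRC1 (2.06) and BTG2 (1.76) rose most, and LSM5 (-1.49, and -0.66 with the offset) and ZFC3H1 (-1.40, and -0.79) fell most.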

How the data were processed

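Total RNA of HCT116 cells was used to make 6 libraries, 2 per condition. The study's methods do not say whether poly(A) RNA was selected, and the paper treats these values as mature mRNA levels. The authors used Trim Galore 0.6.6 to trim the reads, aligned them to GRCh37.p13 with STAR 2.7.0f and counted them per gene with featureCounts of Subread 2.0.0, and their deposited matrix holds raw counts. Strand and multimapping settings are not given in the sources used here. The authors' fold changes and p-values (DESeq2 1.36.0) were not used, except for the file's pairing of Ensembl identifiers with symbols. Dose and vehicle are those of the study's methods.

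Counts were filtered with filterByExpr, scaled by TMM and fitted over all 6 libraries with condition as the only term in edgeR 4.0.16 (R 4.3.3), with 3 residual degrees of freedom. Genes were called at an adjusted p of at most 0.05 over all 16565 tested genes. The pipeline was tested on simulated data. Normalised counts are TMM-scaled to the mean library size. Coordinates, overlaps and GC content come from GENCODE lifted to GRCh37, and promoter sequences from RefSeq. The 41 members and the lists were chosen with earlier results of these data known. Values in every library are given for members called at 10 h against Nut 0h and, in the other 2 comparisons, for the 5 largest called rises and falls. Of the 69 other decay genes, the 2 largest called rises and falls per comparison are named. Alternatives covered scaling, low-count filters, DESeq2 1.42.0, fits to only the 2 conditions compared, GC-content (loess span 0.4) and length offsets, a replicate block, stricter thresholds, each library left out and, added after seeing the data, exonic lengths. In bulk libraries, fewer cells that use a gene and less of its RNA per cell cannot be told apart.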

Additional observations from a re-analysis of the deposited data

Results flagged for a closer look

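For 13 members the effect at 1 h differed from the effect at 10 h, tested directly as Nut 10h against Nut 1h (edgeR quasi-likelihood test, adjusted p of at most 0.05), and either this difference was at least 1 on the log2 scale or the calls against Nut 0h had opposite signs. The share of all tested genes that met this rule is not given here. As 67.9% of all genes were called in this comparison, the count of 13 is not read as a result about the members. Higher at 10 h than at 1 h were DCP1B (2.0, adjusted p = 3.12e-09), EXOSC4 (1.40, adjusted p = 9.34e-07) and EXOSC5 (1.23, adjusted p = 8.61e-07). Lower at 10 h were EXOSC9 (-1.73), DCP2 (-1.71), SMG1 (-1.13), CNOT7 (-1.06), EXOSC2 (-1.06), UPF3B (-1.04), CNOT6L (-1.03), EXOSC8 (-1.01), EXOSC3 (-0.76) and CNOT10 (-0.52), with adjusted p between 4.32e-09 (EXOSC9) and 0.000138 (CNOT10). With the GC-content offset, 11 of the 13 were called in the same direction. DCP1B (2.76), EXOSC5 (0.83) and EXOSC4 (0.81) were higher. EXOSC2 (-1.04), EXOSC9 (-0.96), DCP2 (-0.95), SMG1 (-0.70), UPF3B (-0.49), EXOSC8 (-0.42), EXOSC3 (-0.27) and CNOT7 (-0.22) were lower. CNOT6L (-0.22) and CNOT10 (-0.14) were not called. The 1 h rises of CNOT10, EXOSC3, EXOSC8, EXOSC9 and UPF3B were not called with the offset. Of the 13, DCP1B, DCP2 and EXOSC2 still met the rule with it. Outside the 13, ZFP36 (-0.63), ZFP36L2 (-0.74), UPF1 (-0.62) and SMG5 (-0.37) met the rule with the offset only. With it, each of these was called higher than Nut 0h at 1 h and lower at 10 h.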

How the results depend on the processing

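The counts of called members stayed within 1.5 times their values under DESeq2's size factors, upper-quartile scaling, either low-count filter, DESeq2, fits to only the 2 conditions compared and an adjusted p of at most 0.01, and no scaling moved the median of all genes by more than 0.05 on the log2 scale. Where a log2 fold change of at least 0.5 was also asked for, 12 members were higher and 7 lower at 1 h, 1 and 3 at 10 h, and 3 were higher between 1 and 10 h, as a stricter rule must give fewer. Of all 16565 tested genes, that rule called 4365 higher and 4389 lower at 1 h. It called 1493 higher and 1372 lower at 10 h, and 4670 higher between 1 and 10 h. The GC-content offset left 12 members higher at 1 h and a median of -0.074, 5 higher at 10 h and a median of -0.11 between 1 and 10 h. Together with the replicate block the offset gave 12 higher and -0.072, 6 higher at 10 h, and -0.11. In that fit 3672 of all 16565 tested genes were higher at 1 h and 3058 at 10 h. The length offset put the median between 1 and 10 h at -0.30. The cause of these shifts was not tested. The GC-content offset turned the sign of 23 members at 1 h, to CNOT1 -0.25, CNOT2 -0.58, CNOT3 0.032, CNOT4 -0.46, CNOT6L -0.16, CNOT8 -0.16, CNOT10 -0.17, PARN -0.20, ZFP36 0.30, ZFP36L1 0.51, ZFP36L2 0.20, DCP1A -0.095, XRN2 -0.047, EXOSC3 -0.17, EXOSC7 -0.42, EXOSC8 -0.16, PAPD5 -0.064, UPF1 0.30, UPF2 -0.12, UPF3A -0.074, UPF3B -0.026, SMG5 0.17, SMG6 0.38. It turned 1 at 10 h, CNOT11 -0.0099, and 17 for Nut 10h against Nut 1h, to CNOT1 0.26, CNOT2 0.56, CNOT3 -0.45, CNOT4 0.49, CNOT8 0.17, PAN2 -0.058, PAN3 0.071, PARN 0.083, ZFP36L1 -0.32, DCP1A 0.26, EDC4 -0.26, EXOSC7 0.28, PAPD5 0.46, UPF1 -0.62, UPF3A 0.28, SMG5 -0.37, SMG6 -0.22. With the replicate block added the same signs turned, and the values as rounded here differed only for CNOT3 0.033, CNOT6L -0.15, ZFP36L2 0.21, DCP1A -0.093, XRN2 -0.046, UPF3A -0.072 and UPF3B -0.022 at 1 h, CNOT11 -0.011 at 10 h, and CNOT8 0.16, PAN2 -0.062, PAN3 0.068, ZFP36L1 -0.33 and SMG5 -0.38 between 1 and 10 h. With the length offset CNOT1 was at -0.25 at 1 h and 0.21 between 1 and 10 h, and CNOT11 at 0.015 at 1 h. The length offset also ended the 1 h calls of ZFP36 (-0.017), DCP1A (0.18) and EXOSC10 (-0.12) and the call of CNOT11 between 1 and 10 h (0.051). The calls of CNOT8 and CNOT10 at 1 h ended with DESeq2, its size factors and no low-count filter, those of CNOT11 and ZFP36L1 at 1 h with upper-quartile scaling, a minimum count of 50 and the replicate block, and that of CNOT10 at 10 h in the fit to 2 conditions. Between 1 and 10 h, 4 calls ended with no low-count filter, 1 with DESeq2 and 1 with the replicate block. Upper-quartile scaling put the members' median at 10 h at -0.053.

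Leaving out each library in turn, which leaves a condition with 1 library that is assumed to vary like the others, gave 15 to 18 higher and 9 to 14 lower members at 1 h (median 0.19 to 0.25), 1 to 5 higher and 7 to 12 lower at 10 h (median -0.13 to -0.06), and 5 to 12 higher and 15 to 17 lower between 1 and 10 h (median -0.25 to -0.13). The low counts at 10 h came without Nut 0h replicate 1, where 1641 of all tested genes were lower in place of 2470, and the high count of 5 came when Nut 0h replicate 2 or Nut 10h replicate 1 was left out. Between 1 and 10 h the count of 5 came without Nut 1h replicate 1 and the median of -0.13 without Nut 10h replicate 1. No member called in a comparison changed sign there, whereas members without a call did, such as CNOT1 at 1 h (-0.039 without Nut 0h replicate 1) and EXOSC4 and SMG1 at 10 h (0.088 and -0.19 without that library). Of the calls, 24 of 33 at 1 h, 7 of 15 at 10 h (ZFP36L2, DCP1B, EXOSC2, EXOSC8, EXOSC9, EXOSC10 and UPF3B) and 19 of 27 between 1 and 10 h were made whichever library was left out. At 1 h the calls of CNOT8 and CNOT10 were lost without any of the 6 libraries, those of CNOT11 and ZFP36L1 without any Nut 0h or Nut 1h library, those of ZFP36 and DCP1A without Nut 0h replicate 1 or either Nut 1h library, that of EXOSC3 without replicate 2 of Nut 0h or Nut 1h, that of CNOT2 without Nut 1h replicate 2 and that of EXOSC10 without Nut 1h replicate 1. At 10 h those of CNOT3, CNOT6, CNOT10, ZFP36, EDC4, EXOSC3, PAPD5 and UPF1 were lost without Nut 0h replicate 1. Between 1 and 10 h those of CNOT2, CNOT11, PAN3, PARN, ZFP36L2, EDC3, SMG5 and SMG6 were lost without at least 1 library.

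Libraries with the same replicate number deviated together in 1 of the 3 pairs of conditions only (correlation of deviations from the condition means -0.309 for Nut 0h and Nut 1h, 0.446 for Nut 0h and Nut 10h, and -0.279 for Nut 1h and Nut 10h), so that the numbers were not taken as pairs. With the replicate block 21 members were higher and 11 lower at 1 h (median 0.23), 3 and 13 at 10 h (median -0.10), and 8 and 19 between 1 and 10 h (median -0.22). Of all 16565 tested genes, the fit with the block called 5664 higher and 5315 lower at 1 h. It called 2371 higher and 2522 lower at 10 h, and 5633 higher and 5556 lower between 1 and 10 h. At 26068076 counts or more per library every member had at least 377 counts, and the effect of depth on the precision was not tested.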

Other observations

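Set per kilobase of the canonical transcript, the members differed widely in level. In Nut 0h cells the highest normalised counts per kilobase were those of the exosome subunit EXOSC4 (2332 ± 353, SD, n = 2), ZFP36L1 (2178 ± 104), ZFP36 (2156 ± 342), EXOSC5 (1986 ± 50.2) and CNOT3 (1968 ± 238), and the lowest were those of XRN1 (69.1 ± 11.7), DCP2 (99.1 ± 11.2), CNOT6L (100.7 ± 21.4), PAPD5 (128 ± 4.45) and PAN3 (159.9 ± 7.14). Within the highest 5 each gap between neighbours was smaller than the standard deviation of at least 1 of the 2, as was that between DCP2 and CNOT6L, so that their order is not set by these libraries. The gaps from CNOT3 to UPF1 (1759 ± 106) and from PAN3 to SMG1 (189.7 ± 51.8) were as small by this measure. Where the lists of 5 end is thus not set either. With all annotated exonic bases as the length, ZFP36 ranked 1, EXOSC4 3, ZFP36L1 8, CNOT3 10 and EXOSC5 13, while XRN1, DCP2 and CNOT6L were again the lowest 3. PAPD5 and PAN3 then ranked 35 and 32, and were no longer among the lowest 5. The 5 lowest members have canonical transcripts of 5590 to 10110 bases and the highest, EXOSC4, has 842.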
